A study of Mus musculus with 8 samples.

Results

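Expression of 10 genes of the growth hormone (GH) and insulin-like growth factor (IGF) axis was followed in inguinal white adipose tissue (ING WAT) of mice between weaning and young adulthood. The genes were picked by symbol, without a threshold on their values, out of 38251 genes with at least 1 transcript in the deposited table. They comprise the GH receptor gene *Ghr*, the ligand *Igf1*, the IGF receptor *Igf1r*, the binding proteins *Igfbp3*, *Igfbp4*, *Igfbp5* and *Igfbp6*, the mRNA binding proteins *Igf2bp2* and *Igf2bp3*, and the feedback inhibitor *Socs2*. All mice were C57BL/6j. The group of postnatal day 21 (PN21) held 4 mice (m1, m49, m138 and m145) and the group of postnatal day 98 (PN98) 4 other mice (m35, m106, m114 and m125). The labels name no transgene, deletion or drug for either group. Dams and young received the synthetic diet AIN93G, and older mice were moved to AIN93M or to a western style diet (WSD). Neither the labels nor the methods say which of these the sequenced PN98 mice ate. All mice were dissected after a fast. The sex of the sequenced PN21 mice is not given, and the Y-linked *Ddx3y* was expressed in every mouse (18.1 to 22.1 FPKM at PN21, 19.9 to 25.9 at PN98). *Xist* was low at both ages, at 0.247 to 0.832 FPKM at PN21 and at or below 0.00704 FPKM at PN98.

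GH, released by the pituitary, binds the receptor encoded by *Ghr*, which activates the kinase JAK2 and the transcription factors STAT5A and STAT5B. STAT5 switches on *Igf1* and also *Socs2* and *Cish*, whose products damp the signal of the receptor. IGF1 acts through the tyrosine kinase receptor encoded by *Igf1r*, and IGF binding proteins hold IGF1 and IGF2 in the circulation and between cells and so set how much reaches the receptor. In fat, GH is known for promoting lipolysis, and IGF1 for supporting the proliferation and differentiation of preadipocytes.

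The measurement was FPKM, the number of sequenced fragments of a transcript per kilobase of its length, scaled to the number of mapped fragments, which allows levels of different genes to be set side by side. FPKM was summed over the transcripts of each gene. No read counts were used, so the depth behind a value is unknown and counting error cannot be given. Differences are given as PN98 minus PN21 on the log2(FPKM + 1) scale, which understates changes of low genes. They were tested with limma in 15980 genes with a mean of at least 1 FPKM over the 8 mice, and an adjusted p is a Benjamini-Hochberg value over all of these genes. Nothing but a mouse number in the labels marks the libraries of a group as separate animals. The p-values measure the spread between these libraries.

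Libraries differed beyond the labels. Summed FPKM over nuclear genes lay between 910269 and 1197372 at PN21 and between 810984 and 975723 at PN98, and the log2 fold change had a median over all tested genes of −0.21 as deposited, 0.01 after scaling each mouse to the same nuclear sum and −0.01 after median of ratios scaling. A log2 difference near −0.21 therefore lay at the middle of all genes. Markers of lymphocytes and lymph node summed to 440 to 1017 FPKM at PN21, to 1053 FPKM in PN98 mouse m35 and to 15.8 to 175 FPKM in the other PN98 mice, so that m35 stood above all PN21 mice and far above the others of its age. None of the 10 markers of this list passed the test in limma, and 5 had an unadjusted p under 0.05. Adipocyte markers summed to 13927 to 25108 FPKM at PN21 and 36736 to 47420 FPKM at PN98, where 3 of 8 passed, all higher at PN98, and *Adipoq* was at least 817 FPKM in every mouse. Stem and progenitor markers summed to 2033 to 4307 against 551 to 2036 FPKM (4 of 12 passed, all lower). Most of that sum at PN21 was *Col1a1* and *Col3a1*, and *Col3a1* was at 1180 to 2487 and 104 to 521 FPKM. *Dpt* of the same list was at 211 to 342 FPKM at PN21 and 222 to 1048 FPKM at PN98. Of the 12 log2 differences, 10 were negative and 2 positive. Proliferation markers summed to 83.5 to 140 against 8.34 to 35.2 FPKM (7 of 8 passed, all lower), and skeletal muscle markers to 30.7 to 626 against 422 to 3005 FPKM (1 of 7 tested passed, higher). The sums of macrophage markers (409 to 671 and 186 to 825 FPKM), endothelial markers (197 to 283 and 87.1 to 321 FPKM) and brown adipocyte markers (2180 to 4732 and 310.3 to 3477 FPKM) overlapped between the ages. In these 3 lists 0 genes passed in limma, and 1, 1 and 2 had an unadjusted p under 0.05. Of the brown adipocyte markers, *Ucp1* was at 544 to 650 FPKM at PN21 and 7.41 to 356 FPKM at PN98, without overlap. *Cidea* overlapped (405 to 631 and 55.2 to 1064 FPKM). Mammary and skin epithelial markers summed to 2.01 to 27.2 and 0.396 to 1.14 FPKM (1 of 4 tested passed, lower). Among the PN98 mice, m35 was also highest in macrophage (825 against 186 to 460 FPKM), endothelial (321 against 87.1 to 187 FPKM) and proliferation markers (35.2 against 8.34 to 21.8 FPKM). Its sums were lowest for brown adipocyte markers (310.3 against 901 to 3477 FPKM) and for adipocyte markers (36736 against 42884 to 47420 FPKM). Most of the adipocyte sum was *Fabp4* (27521 FPKM in m35 against 32174.5 to 37466 FPKM). *Adipoq* was not lowest in m35 (2696 against 2512 to 3653 FPKM), nor were *Cidec*, *Lpl*, *Plin1* and *Pnpla2*. In bulk tissue, fewer cells of a type and less RNA per cell cannot be told apart.

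The regulatory sequence of the 2 most abundant members is shown to place them in the genome. On GRCm38, *Ghr* lies on chromosome 15 from 3317760 to 3583492 (minus strand) and *Igfbp4* on chromosome 11 from 99041244 to 99054392 (plus strand). The 250 bases before the RefSeq start of each (build GRCm38.p6) are printed 5′ to 3′, and capitals mark GC boxes in *Ghr* and the TATA motif in *Igfbp4*.
Ghr, chr15:3583353-3583602, minus strand: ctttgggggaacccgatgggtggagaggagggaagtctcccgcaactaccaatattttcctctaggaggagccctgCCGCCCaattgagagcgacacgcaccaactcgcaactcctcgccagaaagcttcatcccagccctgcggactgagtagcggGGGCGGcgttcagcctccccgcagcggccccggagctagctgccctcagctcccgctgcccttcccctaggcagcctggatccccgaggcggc
Igfbp4, chr11:99040994-99041243, plus strand: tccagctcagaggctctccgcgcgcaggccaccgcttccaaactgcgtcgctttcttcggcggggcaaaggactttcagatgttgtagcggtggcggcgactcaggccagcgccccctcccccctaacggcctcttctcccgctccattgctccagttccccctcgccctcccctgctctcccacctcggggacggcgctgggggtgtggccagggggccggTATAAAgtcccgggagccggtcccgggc

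RefSeq windows, each 250 bases before to 50 bases after a start, were matched by symbol for 9 of the 10 members (10 windows, with 2 for *Ghr*), and none was matched for *Socs2*. The motif TTCNNNGAA, which STAT proteins bind and which reads the same on both strands, was in none of the 10 windows and in 8.30% of 32851 windows of that length. The GC box GGGCGG, searched on both strands, was in the windows of *Ghr*, *Igf1r* and *Igf2bp2* (35.7% of all windows), and began 174 and 93 bases before the *Ghr* start. TATAAA, searched on both strands, was in windows of *Igfbp4*, *Igfbp6* and *Ghr* (13.6% of all windows) and began 28 bases before the *Igfbp4* start. These matches are letters in a short window and were not tested for binding.

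In level, the 10 genes spanned means from 233 to 1.43 FPKM at PN21. The order at PN21 was *Igfbp4* (mean 233 FPKM), *Ghr* (176), *Igfbp6* (88.9), *Igf1* (88.5), *Igfbp5* (48.0), *Igfbp3* (45.9), *Socs2* (14.7), *Igf2bp2* (3.23), *Igf1r* (1.49) and *Igf2bp3* (1.43). Neighbours in this order overlapped between mice except *Igf1* and *Igfbp5*, *Igfbp3* and *Socs2*, *Socs2* and *Igf2bp2*, and *Igf2bp2* and *Igf1r*. At PN98 *Ghr* stood first (323 FPKM), with a range that overlapped that of *Igfbp4* (298), followed by *Igf1* (90.7), *Igfbp6* (83.8), *Igfbp5* (53.6), *Igfbp3* (20.6), *Socs2* (8.76), *Igf2bp2* (2.38), *Igf1r* (1.06) and *Igf2bp3* (0.0378). At PN98 the neighbours that did not overlap were *Igfbp4* and *Igf1*, *Socs2* and *Igf2bp2*, *Igf2bp2* and *Igf1r*, and *Igf1r* and *Igf2bp3*. The transcript of the receptor for GH was thus abundant in ING WAT at both ages and that of the receptor for IGF1 was low.

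**Figure D1:**
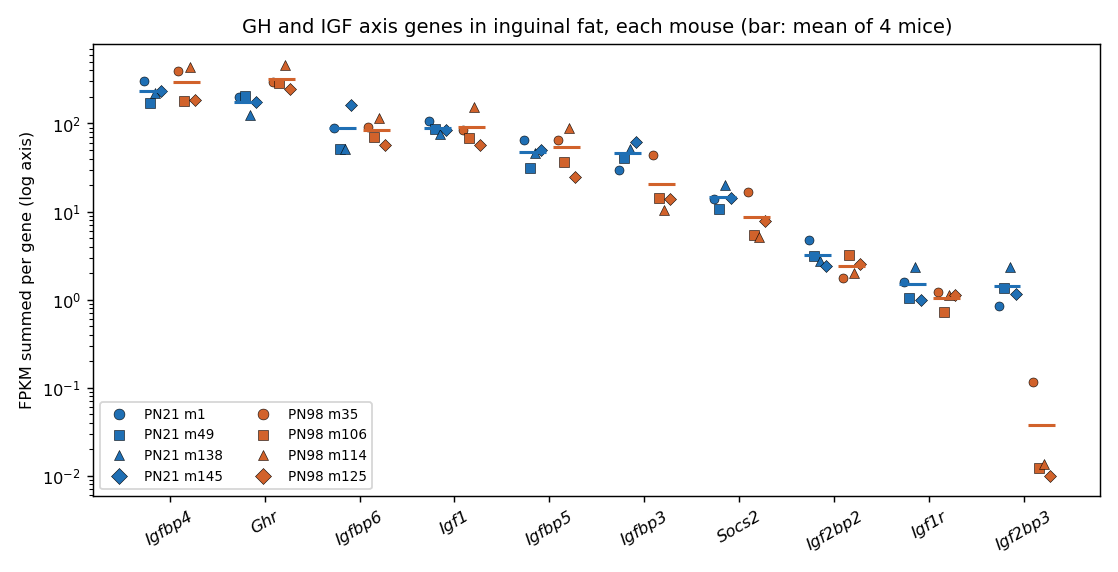
FPKM summed per gene (log axis) of the 10 genes in each mouse, PN21 in blue and PN98 in orange, with bars for the mean of 4 mice. The ages separate in Ghr, higher at PN98, and in Igf2bp3, which lies between 0.847 and 2.33 FPKM at PN21 and between 0.0100 and 0.116 FPKM at PN98. They also separate in 16.2% of all genes tested, which do not include Igf2bp3.

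Of the 10 members, 9 passed the filter on low values and were tested. With limma, 0 of these 9 had an adjusted p under 0.05, whereas 5.51% of all genes tested did (2.42% higher and 3.09% lower at PN98). *Ghr* and *Igfbp3* were the 2 with an unadjusted p under 0.05, which 27.5% of all genes had. The median log2 fold change of the 9 was −0.06, against −0.21 over all genes. The adjusted p was under 0.05 for *Ghr* with either scaling (5.29% of all genes with scaling to nuclear genes and 7.86% with median of ratios), and for *Igfbp3* and *Socs2*, 2 of 9, without m35 (22.7% of all genes). It was under 0.05 for all 3 when limma weighted the libraries by how far they lay from the fit (arrayWeights), where 29.5% of all genes passed. The shares of members under the last 2 settings were near those of all genes.

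*Ghr* encodes the receptor through which GH acts on fat cells. Its level was 202 FPKM in m1, 205 in m49, 123 in m138 and 175 in m145 at PN21, and 297 in m35, 286 in m106, 467 in m114 and 244 in m125 at PN98. Every PN98 mouse was above every PN21 mouse, and m114 was the highest. *Ghr* was the only 1 of the 9 tested members whose ages did not overlap, as was true of 16.2% of all genes tested. The means were 176 ± 37.7 FPKM at PN21 and 323 ± 98.6 at PN98 (SD, n = 4 each), a log2 difference of 0.86 ± 0.25 (SE) with an adjusted p of 0.0874 from limma. The adjusted p was 0.0472 when mice were scaled to the same nuclear sum (log2 difference 1.12) and 0.0422 with median of ratios scaling (1.09), and over the settings that summed *Ghr* in the 8 mice it ranged from 0.0344 (arrayWeights) to 0.113 (no filter on low values). The summed adipocyte markers were likewise higher in every PN98 mouse (36736 to 47420 FPKM) than in every PN21 mouse (13927 to 25108 FPKM), and their part in the difference was not tested.

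*Ghr* transcripts fell into 2 main coding forms. Ghr-201 (650 codons) encodes the full-length receptor, and Ghr-203 (297 codons) encodes the short form known in mice as the GH binding protein, which lacks the membrane-spanning part. Ghr-201 was listed at 74.9, 95.2, 52.6 and 55.7 FPKM in m1, m49, m138 and m145, and at 118, 126, 195 and 84.2 FPKM in m35, m106, m114 and m125. Ghr-203 was listed at 116, 98.3, 60.6 and 109 FPKM at PN21 and at 166, 149, 248 and 153 FPKM at PN98, in the same order of mice. The short form was the higher of these forms in all 8 mice, and it did not overlap between the ages whereas the full-length form did. The share of all transcripts without overlap was not computed. Tested per transcript on log2(FPKM) without a pseudocount, the log2 differences were 0.88 ± 0.31 (SE) for Ghr-201 (limma, adjusted p = 0.181) and 0.91 ± 0.28 for Ghr-203 (adjusted p = 0.146). The share of *Ghr* held by Ghr-203 was 54.3 ± 7.01% at PN21 and 55.9 ± 4.78% at PN98 (SD, n = 4 each; two-sided exact permutation test, p = 0.714, adjusted over the 5 members tested 0.771). The other transcripts with a mean of at least 1 FPKM went in different directions. The short coding Ghr-209 (183 codons) had means of 5.39 and 5.40 FPKM, the non-coding Ghr-205 2.83 and 1.37 FPKM (log2 difference −1.05 ± 0.30, limma, adjusted p = 0.130) and the non-coding Ghr-210 1.54 and 4.26 FPKM (1.35 ± 0.62, adjusted p = 0.248); the non-coding Ghr-206 (1.29 FPKM over the 8 mice, with the higher mean at PN98) was not tested.

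**Figure D2:**
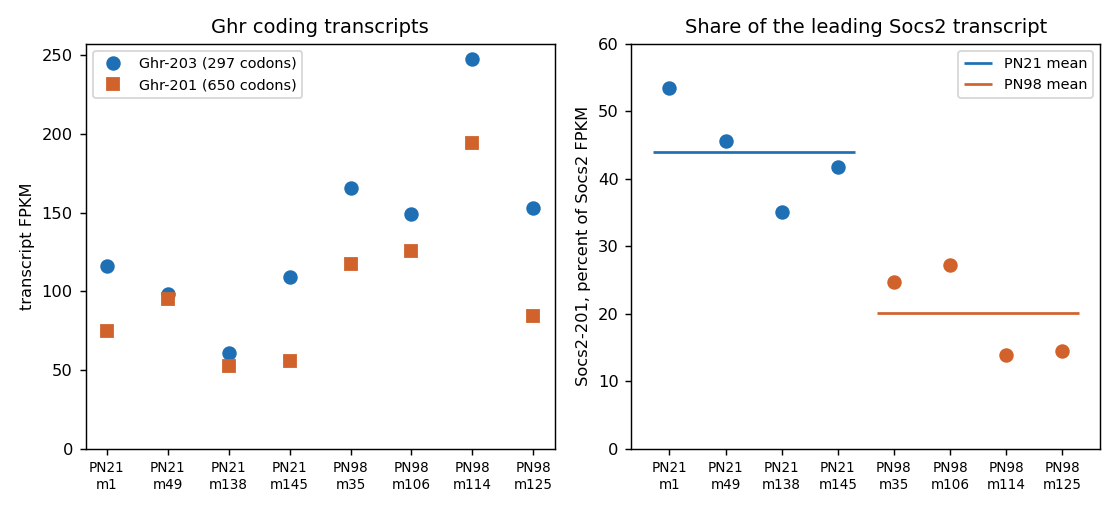
Left, FPKM of the coding transcripts Ghr-203 and Ghr-201 in each mouse; right, the share of Socs2 FPKM held by Socs2-201 in each mouse (percent), with lines for the mean of 4 mice. Ghr-203 lies above Ghr-201 in every mouse, and the Socs2-201 share lies between 35.2% and 53.5% at PN21 and between 13.8% and 27.2% at PN98.

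*Igf1*, the ligand made under the control of GH, differed little in mean between the ages. Its level was 107, 85.6, 75.8 and 85.3 FPKM in m1, m49, m138 and m145, and 85.2, 67.6, 153 and 56.9 FPKM in m35, m106, m114 and m125. The PN98 mice spread around the PN21 mice on both sides, with m114 highest and m125 lowest of all 8. Means were 88.5 ± 13.3 and 90.7 ± 43.2 FPKM (SD, n = 4 each), with a log2 difference of −0.06 ± 0.30 (SE; limma, adjusted p = 0.914). The sign turned with scaling to nuclear genes (0.20) and with median of ratios (0.17). All *Igf1* transcripts of the table are listed together with the gene *Gm10055*, so reads of the overlapping gene cannot be told apart. Igf1-206 (143 codons) held 72.3 ± 3.44% of *Igf1* at PN21 and 72.8 ± 2.72% at PN98 (SD, n = 4 each; exact permutation p = 0.771).

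*Igf1r*, the receptor for IGF1, was near the floor of the test. Its level was 1.59, 1.05, 2.33 and 0.979 FPKM in m1, m49, m138 and m145, and 1.23, 0.725, 1.14 and 1.13 FPKM in m35, m106, m114 and m125. The ages overlapped, with m138 above all others. The log2 difference was −0.25 ± 0.20 (SE; limma, adjusted p = 0.440), close to the median of all genes.

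Among the IGF binding proteins, *Igfbp3* had the largest difference of the 4 members. *Igfbp3* encodes the main carrier of IGFs in the circulation. Its level was 29.8, 40.1, 52.0 and 61.8 FPKM in m1, m49, m138 and m145, and 44.0, 14.2, 10.3 and 13.8 FPKM in m35, m106, m114 and m125. The PN98 mice other than m35 lay below all PN21 mice, and m35 lay inside the PN21 range. Means were 45.9 ± 13.9 and 20.6 ± 15.7 FPKM (SD, n = 4 each), a log2 difference of −1.30 ± 0.44 (SE; limma, adjusted p = 0.113). Without m35 the log2 difference was −1.73 ± 0.27 with an adjusted p of 0.00867, while leaving out any other mouse gave adjusted p-values up to 0.251. In m35 the lymphocyte and lymph node markers were also high (1053 FPKM), and other marker lists stood apart as given above. The part of these in the *Igfbp3* value was not tested.

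*Igfbp4*, *Igfbp5* and *Igfbp6* showed no difference between the ages beyond their spread. *Igfbp4*, which binds IGFs until it is cleaved by the protease PAPP-A, was at 307, 170, 221 and 236 FPKM in m1, m49, m138 and m145, and at 392.5, 180.2, 435 and 183 FPKM in m35, m106, m114 and m125. At PN98 the mice m35 and m114 were high and m106 and m125 low, and the same pairs were high and low in *Igfbp5* (65.4, 36.2, 88.1 and 24.6 FPKM in m35, m106, m114 and m125). The sum of the stem and progenitor markers split these mice the same way (1894, 1045, 2036 and 551 FPKM). The sum of the brown adipocyte markers split them the other way (310.3, 1997, 901 and 3477 FPKM). The part of either in the binding protein levels was not tested. *Igfbp5*, which binds IGFs and matrix, ranged from 31.2 to 64.6 FPKM at PN21. *Igfbp6*, which prefers IGF2 over IGF1, ranged from 51.8 to 164 FPKM at PN21 and from 57.1 to 117 FPKM at PN98. The log2 differences were 0.26 ± 0.35 for *Igfbp4*, 0.04 ± 0.41 for *Igfbp5* and 0.03 ± 0.40 for *Igfbp6* (SE; limma, adjusted p = 0.634, 0.963 and 0.967). The sign of *Igfbp4* and *Igfbp5* turned with arrayWeights (−0.12 and −0.21). Of the *Igfbp4* sum, the longest coding transcript Igfbp4-201 (254 codons) had means of 77.2 and 85.5 FPKM at PN21 and PN98. The shorter coding Igfbp4-205 (121 codons) had 74.9 and 105 FPKM, and the non-coding Igfbp4-203 had 65.6 and 93.5 FPKM. Igfbp4-201 alone was below *Igfbp6* in some mice, as in PN21 m145 (99.3 against 164 FPKM). It was above *Igfbp6* in others, as in PN98 m35 (116 against 91.7 FPKM).

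The make-up of the family does not depend on how mice are scaled to each other. FPKM summed over *Igfbp1* to *Igfbp7* was 429 ± 104 at PN21 and 457 ± 194 at PN98 (SD, n = 4 each). *Igfbp4* held 61.4%, 56.4%, 56.8% and 44.7% of this sum in m1, m49, m138 and m145, and 65.9%, 59.8%, 66.8% and 65.4% in m35, m106, m114 and m125. *Igfbp3* held 5.97%, 13.3%, 13.3% and 11.7% at PN21 and 7.39%, 4.71%, 1.58% and 4.92% at PN98. The share of *Igfbp4* was higher on average at PN98 and that of *Igfbp3* lower, with 1 overlap in each: m106 was below m1 for *Igfbp4*, and m35 was above m1 for *Igfbp3*. The differences were 9.66 percentage points for *Igfbp4* and −6.44 for *Igfbp3* (exact two-sided permutation over 70 splits, p = 0.0571 for both, Benjamini-Hochberg over 4 shares 0.114; the smallest p such a test can give is 0.0286). *Igfbp5* held 11.2 ± 1.48% and 11.3 ± 1.99%, and *Igfbp6* 19.8 ± 7.81% and 19.2 ± 3.29% (SD, n = 4 each; exact permutation p = 0.886 and 0.914).

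**Figure D3:**
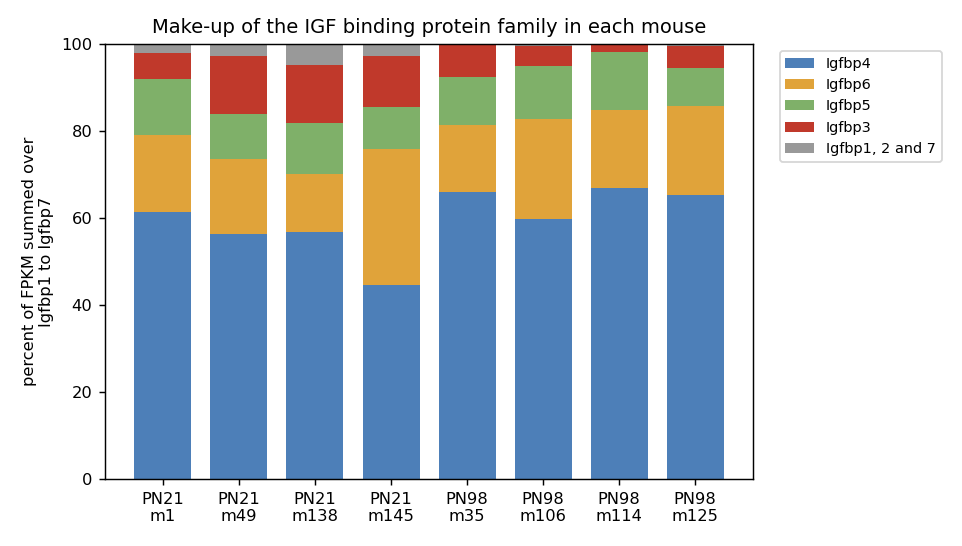
Stacked bars of the percent of FPKM summed over Igfbp1 to Igfbp7 held by each family member in each mouse. Igfbp4, summed over its coding and non-coding transcripts, is the largest part in every mouse, from 44.7% in PN21 m145 to 66.8% in PN98 m114. The part of Igfbp3 ranges from 1.58% to 13.3%.

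*Igf2bp3* and *Igf2bp2* encode proteins that bind mRNAs, among them that of *Igf2*, and *Igf2bp3* is known as a gene of fetal and growing tissue. *Igf2bp3* had 1 transcript in the table and was at 0.847, 1.37, 2.33 and 1.17 FPKM in m1, m49, m138 and m145, and at 0.116, 0.0123, 0.0135 and 0.0100 FPKM in m35, m106, m114 and m125. Every PN21 mouse was above every PN98 mouse, and m35 was the highest of its age. Among genes that passed the filter 16.2% did not overlap between the ages, and without the filter this share was not computed. The mean of 0.733 FPKM over the 8 mice was under the filter, so *Igf2bp3* was not among the 9 tested members. In the fit without the filter, in which 3.68% of 27343 genes passed (1.60% higher and 2.07% lower at PN98), *Igf2bp3* fell from 1.43 ± 0.636 to 0.0378 ± 0.0519 FPKM (SD, n = 4 each), a log2 difference of −1.19 ± 0.17 (SE; limma, adjusted p = 0.0207). The adjusted p stayed between 0.00638 and 0.0344 over the other settings that kept all 8 mice and reached 0.0717 when single mice were left out, being under 0.05 in 3 of 8 such fits. In m35, again, lymphocyte markers were high and other marker lists stood apart, and the part of these in its *Igf2bp3* level was not tested. The table lists the *Igf2bp3* transcript together with the overlapping genes *Malsu1* and *Gm26234*, so reads where they overlap cannot be told apart.

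*Igf2bp2* was at 4.69, 3.11, 2.74 and 2.39 FPKM in m1, m49, m138 and m145, and at 1.74, 3.24, 2.03 and 2.51 FPKM in m35, m106, m114 and m125. The ages overlapped, and the log2 difference was −0.32 ± 0.22 (SE; limma, adjusted p = 0.359). The transcript of the highest mean was Igf2bp2-207, which retains an intron (1.72 ± 0.437 and 1.46 ± 0.704 FPKM, SD, n = 4 each). The coding transcript Igf2bp2-201 (592 codons) was at 0.927, 0.773, 0.970 and 0.927 FPKM at PN21 and at 0.386, 0.572, 0.000286 and 0.377 FPKM at PN98, so that all PN21 mice lay above all PN98 mice. Igf2bp2-201 was too low for the test per transcript, and the share of all transcripts without overlap was not computed. The other coding transcript, Igf2bp2-202 (524 codons), was at 0.695 FPKM in PN98 m35. It was at or below 0.119 FPKM in the PN21 mice and at or below 0.000341 FPKM in the other PN98 mice. With Igf2bp2-202 added to Igf2bp2-201, m35 lay above all PN21 mice, so the separation holds for Igf2bp2-201 alone.

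*Socs2* encodes a protein that is induced by GH through STAT5 and limits signalling of the GH receptor. Its level was 13.96, 10.6, 19.9 and 14.2 FPKM in m1, m49, m138 and m145, and 16.7, 5.41, 5.197 and 7.75 FPKM in m35, m106, m114 and m125. As for *Igfbp3*, the PN98 mice other than m35 lay below all PN21 mice and m35 lay inside their range. Means were 14.7 ± 3.85 and 8.76 ± 5.41 FPKM (SD, n = 4 each), with a log2 difference of −0.79 ± 0.35 (SE; limma, adjusted p = 0.187). Without m35 the log2 difference was −1.12 ± 0.24 and the adjusted p 0.0185, whereas over the settings that kept the 8 mice the adjusted p ranged from 0.0182 to 0.571. The upper value came from the transcripts listed with *Socs2* alone, which leave out Socs2-201 with 2 low transcripts and had a log2 difference of −0.36 ± 0.40. In m35 the lymphocyte and lymph node markers were at 1053 FPKM, beside the other marker lists that stood apart. Whether any of these markers bear on *Socs2* was not tested.

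*Socs2* was spread over 14 transcripts, 3 of which code for the whole protein of 198 codons at a mean of at least 1 FPKM. The leading transcript Socs2-201 was at 7.47, 4.84, 6.997 and 5.94 FPKM in m1, m49, m138 and m145, and at 4.13, 1.47, 0.719 and 1.13 FPKM in m35, m106, m114 and m125. All 4 PN21 mice lay above all 4 PN98 mice, m35 included. Of all genes tested 16.2% did not overlap between the ages, and over transcripts this share was not computed. The log2 difference of Socs2-201 without a pseudocount was −2.06 ± 0.51 (SE; limma, adjusted p = 0.104). The share of *Socs2* held by Socs2-201 was 53.5%, 45.5%, 35.2% and 41.8% at PN21 and 24.7%, 27.2%, 13.8% and 14.5% at PN98. The ages did not overlap (44.0 ± 7.66% against 20.1 ± 6.90%, SD, n = 4 each; two-sided exact permutation p = 0.0286, the smallest this test can give, and 0.143 after adjustment over the 5 members tested). Socs2-201 is listed together with an overlapping gene, AC167222.1, and transcript FPKM are estimates that divide shared fragments among similar transcripts.

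At the level of transcripts, 20 transcripts of 7 members passed the conditions of the study's own comparison (above 0 FPKM in all mice and a mean above 2 FPKM at 1 age). Of these, 0 had an adjusted p under 0.05 in limma, against 1.36% of 23137 transcripts (0.717% higher and 0.640% lower), and 5 transcripts of 3 members (*Ghr*, *Igfbp3* and *Socs2*) had an unadjusted p under 0.05, as did 21.8% of all transcripts. Without m35, 2 member transcripts, Igfbp3-201 and Socs2-201, had an adjusted p under 0.05 (0.0320 and 0.0185 in limma), against 7.67% of all transcripts. With 20 member transcripts tested in the fit of all 8 mice, a count of 2 is not read as above that share. The share of the leading transcript differed by less than its spread in *Igfbp4* (Igfbp4-205, 31.1 ± 5.58% and 34.4 ± 4.68%) and *Igfbp5* (Igfbp5-201, 76.8 ± 5.46% and 80.7 ± 2.62%; SD, n = 4 each, exact permutation p = 0.4 and 0.257).

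**Figure D4:**
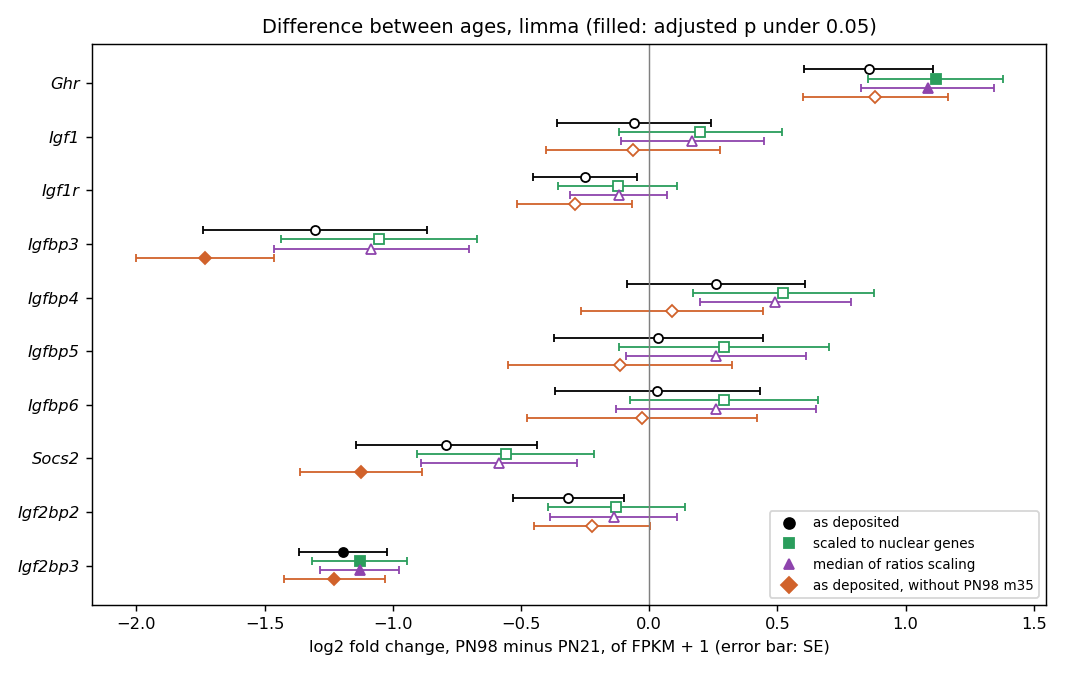
Log2 fold change (PN98 minus PN21, FPKM + 1) with its SE for the 10 genes as deposited, with the scalings to nuclear genes and by median of ratios, and without PN98 mouse m35; filled symbols have an adjusted p under 0.05. Igf2bp3 is from the fits without the filter on low values. Ghr is filled under both scalings only, Igfbp3 and Socs2 only without m35, and Igf2bp3 in all 4.

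Of the 68 other genes of the pathway, 55 were tested and 7 had an adjusted p under 0.05, with 2 higher and 5 lower at PN98 (12.7%, against 5.51% of all genes). Leaving out 1 mouse moved the count from 3 to 13, and with 13 of 55 (23.6%) the pathway genes were near all genes without m35 (22.7%) and below them with arrayWeights (29.5%). Their median log2 fold change was −0.17. The ligand *Igf2*, an imprinted fetal growth factor, fell from 16.5 to 25.3 FPKM in the PN21 mice to 2.27 to 5.11 FPKM in the PN98 mice, a log2 difference of −2.24 ± 0.24 (limma, adjusted p = 0.00355). *Igfbp2*, a binding protein made by preadipocytes, fell from 6.14 to 17.0 FPKM to 0.0421 to 1.33 FPKM (−3.04 ± 0.36, adjusted p = 0.00502). *Igf2*, *Igfbp2* and *Cyp2e1* passed in all 8 fits that left out 1 mouse, whereas *Grb10* did in 4, *Stc1* in 3, *Prlr* in 2 and *Pik3cb* in 1 of the 8, with adjusted p-values up to 0.121.

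Of the receptors, the prolactin receptor *Prlr*, a close relative of *Ghr*, fell from 2.69 ± 0.952 to 0.738 ± 0.311 FPKM (SD, n = 4 each; log2 difference −1.07, limma, adjusted p = 0.0342). The adjusted p of *Prlr* was 0.0694 with scaling to nuclear genes and 0.0641 with median of ratios scaling. *Insr*, the insulin receptor, was at 6.71 to 10.2 FPKM at PN21 and 10.3 to 15.6 FPKM at PN98, without overlap (0.54 ± 0.19, adjusted p = 0.125). *Igf2r*, which clears IGF2, was at 12.1 FPKM on average at both ages (adjusted p = 0.918). *Gh* itself was at or below 0.940 FPKM in every mouse. *Stc1*, an inhibitor of the PAPP-A proteases, fell from 2.41 ± 0.503 to 0.573 ± 0.305 FPKM (SD, n = 4 each; limma, adjusted p = 0.0181), whereas *Stc2* had an adjusted p of 0.753. *Pappa* was at or below 0.110 FPKM in every mouse.

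In the cascade below *Ghr*, 0 of 12 genes had an adjusted p under 0.05 in limma (5.51% of all genes) and 1 had an unadjusted p under 0.05 (27.5% of all genes). *Jak2* was at 2.58 to 5.64 FPKM and 1.51 to 5.92 FPKM, *Stat5a* at 13.7 to 23.3 and 14.2 to 18.0 FPKM, and *Stat5b* at 12.9 to 17.0 and 11.6 to 16.6 FPKM at PN21 and PN98 (adjusted p = 0.976, 0.350 and 0.642; the signs of *Jak2* and *Stat5b* turned with both scalings). All 3 overlapped between the ages. Of the 9 genes of feedback, *Grb10*, an adaptor that inhibits the insulin and IGF receptors, fell from 18.6 ± 1.71 to 9.65 ± 1.54 FPKM (SD, n = 4 each; log2 difference −0.89, limma, adjusted p = 0.0205), with an adjusted p of 0.0938 after scaling to nuclear genes. *Cish*, a STAT5 target like *Socs2*, was at 21.6, 4.25, 7.70 and 21.6 FPKM in m1, m49, m138 and m145, and at 4.33, 2.20, 0.804 and 6.22 FPKM in m35, m106, m114 and m125 (−1.68 ± 0.59, adjusted p = 0.127). The ages overlapped in *Cish*, and 1 of its transcripts whose decimals could not be restored is missing from these sums. *Socs3* was at 8.64 to 11.03 FPKM at PN21, at 10.5 FPKM in m35 and at 1.77 to 3.03 FPKM in the other PN98 mice, the pattern of *Socs2* and *Igfbp3* (adjusted p = 0.116, and 0.00394 without m35).

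The RefSeq start of *Cish* is shown since it holds the STAT motif that was searched in the members other than *Socs2*, as does a window of *Prlr* (110 bases before the start). In *Cish* the motif stands at bases 1 and 12 after the start, and capitals mark both copies.
Cish, chr9:107296654-107296683, plus strand: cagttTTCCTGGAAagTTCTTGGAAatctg

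Below the IGF and insulin receptors, 1 of 17 tested genes passed (5.88%), a share near that of all genes (5.51%). *Pik3cb*, a catalytic subunit of phosphoinositide 3-kinase, rose from 5.23 ± 1.38 to 13.2 ± 3.82 FPKM (SD, n = 4 each; log2 difference 1.18, limma, adjusted p = 0.0405). *Irs2*, which docks to the activated receptors, was at 1.49 to 7.32 FPKM at PN21 and 9.05 to 12.7 FPKM at PN98, without overlap (1.36 ± 0.39, adjusted p = 0.0803). *Irs1* was at 1.33 to 4.13 and 1.84 to 5.56 FPKM (adjusted p = 0.748). Among 6 tested genes known to respond to GH in liver or elsewhere, *Cyp2e1* rose from 50.8 to 82.8 FPKM to 258 to 792 FPKM (2.79 ± 0.35, adjusted p = 0.00639), and 5 did not pass. Of the other family members, *Igfbp7* was at 1.11 to 2.14 and 0.411 to 1.42 FPKM (adjusted p = 0.207), *Igfbp1* was at or below 0.306 FPKM and *Igf2bp1* at or below 0.104 FPKM in every mouse.

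**Figure D5:**
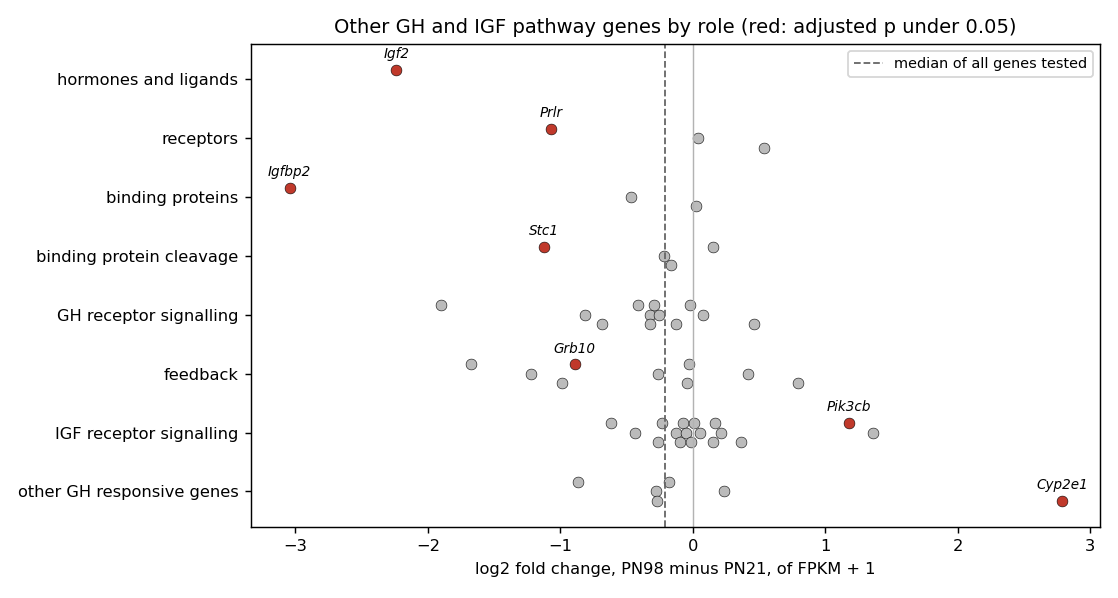
Log2 fold change (PN98 minus PN21, FPKM + 1) of the 55 tested pathway genes other than the 10 members, by role, with the 7 genes of adjusted p under 0.05 in red and named. The dashed line is the median of all genes tested (−0.21), and the named genes lie from −3.04 (Igfbp2) to 2.79 (Cyp2e1).

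Genes whose log2(FPKM + 1) was most like that of each member over the 8 mice were looked up among all other genes tested. They share libraries and, for members that moved with age, the age of the mice, so the values are descriptions. For *Ghr* they were *Npc2* (Pearson r = 0.994) and *Cd151* (0.987), for *Igfbp3* *Abracl* (0.992) and *Snrnp40* (0.989), and for *Socs2* *Ubac2* (0.980) and *BC028528* (0.977). *Igfbp4* was most like *Prss23os* (0.987) and *Evc2* (0.980), *Igfbp5* like *Erbb2* (0.985) and *Adamts2* (0.980), and *Igfbp6* like *Adam15* (0.968) and *Cd63-ps* (0.967). For *Igf1* they were *Hist1h4c* and *Hist1h4n* (0.974 each, which are near-identical histone genes), for *Igf1r* *Atf1* (0.960) and *Cep250* (0.949), and for *Igf2bp2* *Gm6104* (0.940) and *Gm10110* (0.929).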

How the data were processed

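Inguinal fat was sequenced as poly(A)+ RNA, paired end, in 4 mice at each of PN21 and PN98. The authors mapped reads to mm10 with STAR 2.3.0 and estimated FPKM per transcript with Cufflinks 2.1.1 on a GENCODE annotation, and the values are deposited as FPKM with decimal commas; strand settings of the counting are not given in the sources used here. In 40426 of 91969 transcripts a decimal mark was lost. It was restored from the deposited SD, average and score, which were computed over 10 values, of which those of 8 mice are analysed here; 35 transcripts were taken from the intact decimals of the authors' comparison table, and 203 without a single reading were left out, none of them of a member. In all 4994 restored transcripts that also stand in the authors' comparison table the values were equal within a relative difference of 1e-05 (taken against 0.0001 FPKM for lower values). That table's fold changes and p-values were not used. Transcripts were assigned to genes by their ID in GENCODE vM21 (88537 of 91766) and otherwise by a single gene ID of the table, and FPKM was summed per gene.

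Ages were compared with limma 3.58.1 in R 4.3.3 (eBayes, log2(FPKM + 1), mean FPKM of at least 1, Benjamini-Hochberg), per transcript on log2(FPKM) under the FPKM conditions of the study, and shares with two-sided exact permutation tests in Python. The scripts were tested on simulated data. Named were all members, pathway genes past the threshold and, whatever their values, *Igf2*, *Igf2r*, *Insr*, the other *Igfbp* genes, *Jak2*, *Stat5a*, *Stat5b*, *Cish*, *Socs3*, *Irs1*, *Irs2*, *Pappa*, *Stc2* and *Igf2bp1*, and the 2 tested genes most like each member. *Gh* was named after its values were seen. The members and lists were chosen with earlier results of these data known. Alternatives were other pseudocounts, filters, scalings, weights, transcript assignments and leaving out each mouse.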

Additional observations from a re-analysis of the deposited data

Results flagged for a closer look

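PN98 mouse m35 lay apart from the other mice of its age in 2 members. *Igfbp3* was at 44.0 FPKM in m35 against 10.3 to 14.2 FPKM in the other PN98 mice, and *Igf2bp3* was at 0.116 FPKM against 0.0100 to 0.0135 FPKM. These were the 2 cases among 38 groups of 4 values (members and shares), where Dixon's criterion picks about 1 in 20 independent groups by chance, or 1.9 of 38. The groups share genes and mice, and both cases are in m35, so the number for independent groups does not apply strictly. In m35 the lymphocyte and lymph node markers summed to 1053 FPKM, against 15.8 to 175 FPKM in the other PN98 mice. The summed macrophage, endothelial, proliferation, brown adipocyte and adipocyte markers of m35 also lay outside the range of the other PN98 mice. For the adipocyte list this held for the sum, mostly *Fabp4*, and not for *Adipoq*. The part of these in either value was not tested.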

How the results depend on the processing

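Depth could not be read from FPKM, so no floor is given for low genes. No paired analysis was possible because the labels give mouse numbers that are not shared between the ages. Counts of adjusted p under 0.05 over all genes were 880 (387 higher and 493 lower at PN98), over members 0 and over pathway genes 7. Without the filter on low values, 1 member passed (1 lower) and 1 pathway gene was higher. With a mean of at least 5 FPKM, 573 genes passed (283 lower) and 3 pathway genes were lower. Scaling to nuclear genes gave 1 member (1 higher), 569 genes higher and 276 lower, 3 pathway genes lower, and log2 fold changes of 0.20 for *Igf1*, 0.17 for *Jak2* and 0.12 for *Stat5b*. Median of ratios scaling gave 1 member (1 higher), 781 genes higher and 471 lower, and 0.17, 0.15 and 0.090 for these genes. With arrayWeights, 3 members (1 higher, 2 lower), 4716 genes (1161 higher, 3555 lower) and 13 pathway genes (4 higher, 9 lower) passed, and *Igfbp4* was at −0.12, *Igfbp5* −0.21, *Igf2r* −0.054 and *Stc2* −0.14. Transcripts listed with 1 symbol alone gave 516 genes (230 higher, 286 lower), and counting every transcript listed with a symbol, an alternative chosen after seeing the data, gave 1 member (1 lower). By the transcript of lowest p, *Ghr* was at −1.05 and *Igfbp5* at −0.20. The *Igfbp5* share within Igfbp3 to Igfbp6 differed by −0.156 points, and the *Igfbp4* transcript of highest median by −4.59 points.

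Leaving out each mouse gave 0 to 2 members (0 higher, 0 to 2 lower), 214 to 3604 genes (101 to 695 higher, 113 to 2909 lower), 3 to 13 pathway genes (1 to 3 higher, 2 to 10 lower), and 0 to 2 member transcripts of 0 to 2 genes. The upper values for members, all genes, pathway genes and transcripts came without m35. Log2 fold changes that turned ranged from −0.34 to 0.13 (*Igf1*), −0.25 to 0.35 (*Igfbp5*), −0.17 to 0.38 (*Igfbp6*), −0.17 to 0.15 (*Igf2r*), −0.061 to 0.34 (*Irs1*), −0.22 to 0.27 (*Jak2*) and −0.053 to 0.34 (*Stc2*), and shares from −0.614 to 4.45 points (*Ghr* transcript), −0.898 to 1.89 (*Igf1* transcript), −0.565 to 1.01 (*Igfbp5*) and −2.78 to 3.17 (*Igfbp6*). The cause of these moves was not tested.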
